A study of Bos taurus with 6 samples.

Results

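The families miR-10, miR-99/100 and miR-125 are described here in FBS, the serum of unborn calves that feeds cultured cells. Members were chosen by name alone: both arms of miR-10a, miR-10b, miR-99a, miR-99b, miR-100, miR-125a and miR-125b. The rule found 12 of the 502 miRNA names of the human mapping and the same 12 of the 395 names of the mouse mapping, 7 from the 5p and 5 from the 3p arm. By family these were 3 names of miR-10, 4 of miR-99/100 and 5 of miR-125. The groups were 3 pellets and 3 supernatants of ultracentrifuged FBS from cattle (Bos taurus). Each spin at 100000 g took 24 h and 40 mL of FBS. The pellets hold EVs (extracellular vesicles) with any other particle heavy enough to sediment, while 20 mL of each supernatant was concentrated over 3 kDa filters, so it keeps RNPs (protein complexes with RNA) and EVs that did not sediment. All 6 libraries were made from 60 ng of kinase-treated RNA with inserts of 15 to 65 nt. Values are RPM, reads scaled to a fixed number of mapped reads in each library, and thus shares of a library rather than amounts per mL of FBS. The names are human or mouse annotations given to cattle RNA.

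The miR-10 and miR-99/100 families are old relatives with alike guide strands, but they differ in the seed, the stretch near the 5′ end that pairs with target mRNAs. miR-125 is the vertebrate counterpart of lin-4, the miRNA that times larval development in the worm. miR-10 genes lie within HOX clusters, which pattern the body axis, miR-99 and miR-100 are known to repress MTOR and IGF1R, and miR-125 represses LIN28, which blocks let-7 maturation. All 8 genes of the members were found in the cattle assembly ARS-UCD2.0, used for names and order alone. MIR10A stood next to HOXB4, and MIR10B between HOXD4 and HOXD8. MIR99A, MIRLET7C and MIR125B-2 were direct neighbours, as were MIR100, MIRLET7A-2 and MIR125B-1, and MIR99B, MIRLET7E and MIR125A. In mammals each such trio is known to be made from a shared primary transcript, so miR-99b and miR-125a come from a single locus, whereas miR-125b comes from a pair of loci.

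To estimate depth, 1 read was taken to be the smallest value that 6 or more miRNAs had in common within a library. For the human genome this gave 867426 to 6660802 reads in the pellets and 3081111 to 5373233 reads in the supernatants. Pellet 3 was the shallowest, with 1 read worth 1.15 RPM, against 0.150 RPM in pellet 1. The miRNAs took 6.33% to 12.9% of mapped reads in the pellets and 5.21% to 5.85% in the supernatants, and miR-122-5p of hepatocytes held 67.0% to 78.3% of these miRNA reads in the pellets and 59.4% to 69.8% in the supernatants. Pellets were set against supernatants by limma, with log2(RPM + 1) as the response, over the 153 human names that reached 1 RPM in 3 or more libraries, adjusted over all of them. The study's text describes different batches of FBS, its legend calls the samples aliquots, and no label ties a library number to a batch. The p-values therefore reflect the spread among these 6 libraries, and how much of it lies between batches was not tested.

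All members together summed to 673, 809 and 206 RPM in pellets 1, 2 and 3, against 58.3, 68.6 and 67.0 RPM in supernatants 1, 2 and 3. The pellets thus lay above the supernatants and differed far more among themselves, with means of 562 ± 316 RPM for pellets and 64.6 ± 5.54 RPM for supernatants (SD, n = 3 each). These sums rest on an estimated 4481, 1269 and 178 reads in the pellets and 313, 263 and 206 reads in the supernatants. Of the miRNA reads the members held 0.522%, 1.05% and 0.325% in the pellets, against 0.0997%, 0.124% and 0.129% in the supernatants. miR-99/100 was the largest family, with 485, 528 and 119 RPM in pellets 1, 2 and 3, against 44.7, 55.8 and 47.4 RPM in supernatants 1, 2 and 3. miR-10 summed to 101, 210.1 and 56.5 RPM in the pellets, against 11.1, 9.92 and 13.2 RPM in the supernatants. The smallest was miR-125, at 87.2, 70.8 and 30.4 RPM in the pellets, against 2.47, 2.83 and 6.43 RPM in the supernatants. Pellet 3 was the lowest pellet in all 3 families, yet above every supernatant. These sums over both arms describe the level of each family, with no test. A low pellet 3 was not particular to these families. All miRNAs other than miR-122-5p and miR-1246 summed to 18498, 12270 and 6765 RPM in pellets 1, 2 and 3. In supernatants 1, 2 and 3 that sum was 2597, 2348 and 2785 RPM.

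**Figure D1:**
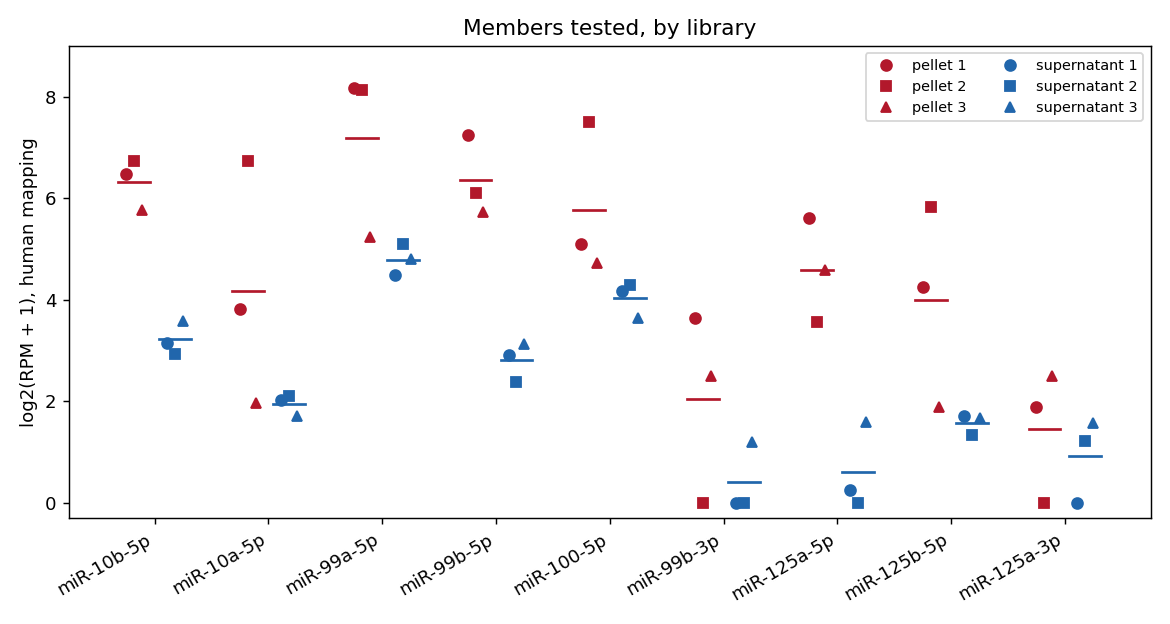
Level of each tested member as log2(RPM + 1) in the human mapping, with 3 pellets (red) left of 3 supernatants (blue), symbols for the library number and lines for the mean of the logged values. miR-10b-5p, miR-99b-5p and miR-125a-5p stand furthest apart between fractions. miR-10a-5p, miR-100-5p and miR-125b-5p are highest in pellet 2, with pellet 1 also above every supernatant.

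Of the 12 members, 9 passed the filter and were tested, and 4 of these were higher in the pellets by limma, namely hsa-miR-10b-5p, hsa-miR-99a-5p, hsa-miR-99b-5p and hsa-miR-125a-5p. None was lower, and 5 did not pass. Over all tested names 73 of 153 (47.7%) were higher in the pellets, so the members' share is near that of miRNAs at large. In 6 of the 9 every pellet exceeded every supernatant, and this held for the same share (66.7%) of all tested names. The log2 fold changes of the 9 ran from 0.54 to 3.98 with a median of 2.40, beside a median of 2.05 over all tested. The filter can be passed through the pellets alone, so these figures describe the tested members only. Of the 6 members with at least 1 RPM in every library, 3 were higher in the pellets. The share of all names under this stricter filter was not counted, so this count has no background. Without supernatant 1 or without supernatant 2, limma called 0 of the 9 and 0 of all 153 names (67 and 61 of these had an unadjusted p under 0.05), while without pellet 3 it called 7 of the 9 and 97 of all 153.

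**Figure D2:**
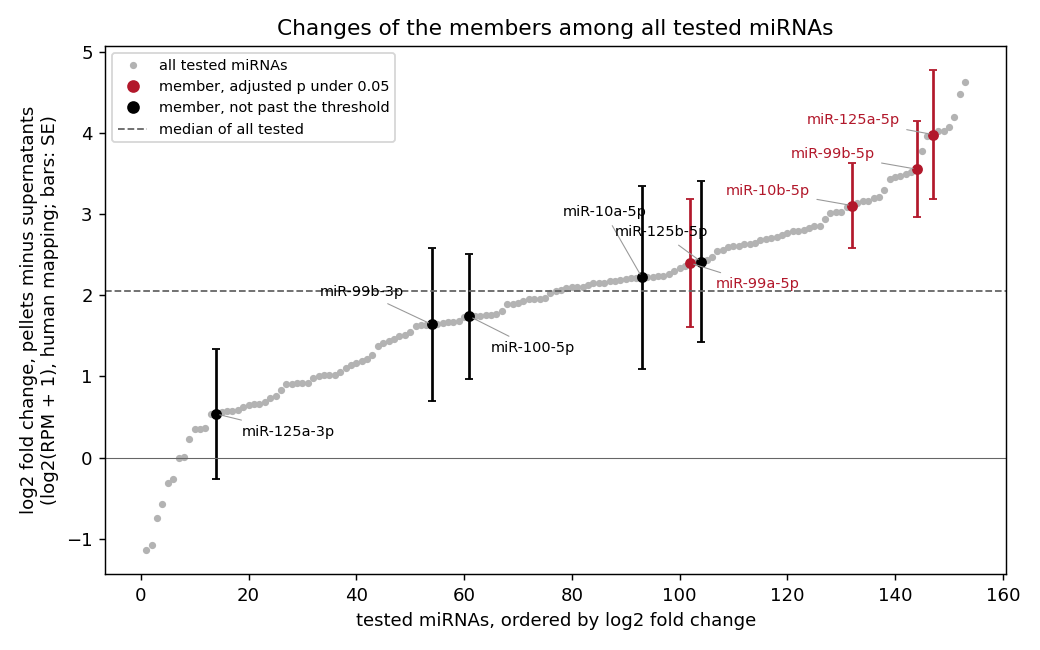
Log2 fold change of pellets over supernatants for all 153 tested miRNAs of the human mapping in rising order (grey), with the 9 tested members and their standard errors. miR-125a-5p (3.98), miR-99b-5p (3.55) and miR-10b-5p (3.11) lie near the upper end, and miR-125a-3p (0.54) near the lower.

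miR-10b-5p, known from human breast cancer cells to repress HOXD10, had the smallest ratio of highest to lowest pellet among the members above 0 in every pellet. hsa-miR-10b-5p stood at 87.6, 105 and 53.6 RPM in pellets 1, 2 and 3, against 7.82, 6.66 and 10.9 RPM in supernatants 1, 2 and 3. The lowest pellet was 4.90 times the highest supernatant. The log2 fold change was 3.11 ± 0.52 (standard error, limma adjusted p = 0.00913), place 22 of 153 by size. The call was lost without supernatant 1 or 2 (adjusted p = 0.0667 and 0.0695).

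miR-10a-5p, its paralog from the HOXB cluster, had the largest ratio of highest to lowest pellet among the members above 0 in every pellet. It stood at 13.0, 105 and 2.88 RPM in pellets 1, 2 and 3, against 3.09, 3.26 and 2.26 RPM in supernatants 1, 2 and 3. Pellet 2 was 36.4 times pellet 3, which fell among the supernatants on an estimated 2.5 reads. The log2 fold change of 2.22 (standard error 1.13) did not pass (adjusted p = 0.123 from limma), and it was 0.94 without pellet 2 (adjusted p = 0.301) and 3.32 without pellet 3 (adjusted p = 0.0184). miR-10a-3p, the passenger strand, was found in supernatant 1 alone, at 0.186 RPM or 1 read. In pellet 2 the 2 paralogs were level, with a ratio of miR-10b-5p to miR-10a-5p of 1.0, against 6.75 in pellet 1 and 18.6 in pellet 3. The supernatants had ratios of 2.53, 2.04 and 4.85. Only 2 of the 12 values of this pair were whole reads, so the split of shared reads between the paralogs, and with it these ratios, is uncertain.

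miR-99a-5p was the most abundant member in both fractions by the mean. hsa-miR-99a-5p stood at 289, 280.1 and 36.9 RPM in pellets 1, 2 and 3, against 21.3, 33.1 and 26.8 RPM in supernatants 1, 2 and 3. Pellet 3 was thus only 1.11 times the highest supernatant. Its log2 fold change was 2.40 ± 0.79 (standard error, limma adjusted p = 0.0390). The call was lost without pellet 1 (adjusted p = 0.0783), pellet 2 (0.0867) or supernatant 1, 2 or 3 (0.129, 0.107 and 0.111), and also with a pseudocount of 10 RPM (0.0598) or no filter (0.218). Without pellet 3 the log2 fold change was 3.37 (adjusted p = 0.00190).

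hsa-miR-99b-5p, made together with miR-125a, stood at 152, 67.6 and 51.9 RPM in pellets 1, 2 and 3, against 6.51, 4.18 and 7.79 RPM in supernatants 1, 2 and 3. The lowest pellet was 6.66 times the highest supernatant, the widest such gap among the members above 0 in all libraries. Its log2 fold change was 3.55 ± 0.59 (standard error, limma adjusted p = 0.00913), the tenth of all tested. Without supernatant 1 or 2 the adjusted p was 0.0667 and 0.0695. Its 3p strand, a passenger, stood at 11.4, 0 and 4.61 RPM in the pellets, against 0, 0 and 1.30 RPM in the supernatants. The fractions overlapped at 0, and miR-99b-3p did not pass (log2 fold change 1.64, standard error 0.94, adjusted p = 0.166) except without pellet 2 (2.66, adjusted p = 0.0252).

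hsa-miR-100-5p stood at 33.1, 181 and 25.4 RPM in pellets 1, 2 and 3, against 16.9, 18.5 and 11.5 RPM in supernatants 1, 2 and 3. Pellet 2 was high, and pellets 1 and 3 were close to the supernatants, though above them. The log2 fold change of 1.74 (standard error 0.77) did not pass (adjusted p = 0.0812 from limma). It was 0.87 without pellet 2 (adjusted p = 0.186) and 2.27 without pellet 3 (adjusted p = 0.0303).

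miR-125a-5p had the largest log2 fold change of the members, and the fewest reads in the supernatants of the 4 that passed. hsa-miR-125a-5p stood at 48.1, 10.8 and 23.1 RPM in pellets 1, 2 and 3, against 0.186, 0 and 1.99 RPM in supernatants 1, 2 and 3. The supernatant values stand for an estimated 1, 0 and 6.1 reads, and the 0 of supernatant 2 allows up to 0.783 RPM (3 counts, counting error only). The log2 fold change was 3.98 ± 0.80 (standard error, limma adjusted p = 0.0121), place 7 of 153. It depends on the pseudocount, at 5.88 with 0.1 RPM (adjusted p = 0.0136) and 1.68 with 10 RPM (adjusted p = 0.0362). The call was lost when supernatant 1 or 2 was left out (adjusted p = 0.0670 and 0.0856), and when names with low values were kept in the fit (0.0570).

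miR-125b-5p, which represses the mRNA of p53 in human cells, stood at 18.0, 55.5 and 2.69 RPM in pellets 1, 2 and 3, against 2.28, 1.52 and 2.16 RPM in supernatants 1, 2 and 3. Pellet 2 was 20.6 times pellet 3, and pellet 3 was 1.18 times the highest supernatant on an estimated 2.3 reads. The log2 fold change of 2.41 (standard error 0.99) did not pass (adjusted p = 0.0661 from limma), and it was 1.5 without pellet 2 (adjusted p = 0.148) and 3.46 without pellet 3 (adjusted p = 0.00683). With the library number as a block it passed (limma adjusted p = 0.0476). Among the 3p strands, miR-125a-3p stood at 2.70, 0 and 4.61 RPM in the pellets, against 0, 1.31 and 1.95 RPM in the supernatants, which overlapped (log2 fold change 0.54, limma adjusted p = 0.558). miR-125b-1-3p reached 6.83 RPM in pellet 1 and 1 read in supernatant 3, and was at 0 in the other libraries. miR-125b-2-3p was at 11.6, 4.46 and 0 RPM in the pellets and at 0 in all supernatants. A count of 0 allows up to 3.46 RPM in pellet 3 and 0.558 to 0.974 RPM in the supernatants. These 2 names and miR-10a-3p did not reach the filter.

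Sets of members differed in the pellet where they were highest. miR-10a-5p, miR-100-5p and miR-125b-5p summed to 64.1, 341 and 30.9 RPM in pellets 1, 2 and 3, against 22.3, 23.3 and 15.9 RPM in supernatants 1, 2 and 3. Pellet 2 stood far above the other pellets in these. miR-99b-5p and miR-125a-5p, neighbours in the genome, summed to 199.7, 78.4 and 74.9 RPM in the pellets, against 6.70, 4.18 and 9.78 RPM in the supernatants. Here pellet 1 was highest, and both 3p strands of this locus were at 0 in pellet 2. A count of 0 in pellet 2 allows up to 1.91 RPM, and miR-125a-3p was at only 2.70 RPM in pellet 1. let-7e-5p, which lies between them, stood at 40.3, 0.551 and 12.9 RPM in the pellets, against 2.02, 2.13 and 2.02 RPM in the supernatants (adjusted p = 0.231). Its value in pellet 2 is below 1 read. The grouping was made after the values were seen and was not tested. It leaves out miR-99a-5p, nearly level in pellets 1 and 2 (289 and 280.1 RPM). Also left out is miR-10b-5p, at 87.6, 105 and 53.6 RPM in pellets 1, 2 and 3. Neighbours in the genome are found outside the second set too, as MIR100 with MIR125B-1 and MIR99A with MIR125B-2.

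Pellet 2 was also the highest library in several miRNAs of blood cells, though not in all of them, and in miRNAs of hepatocytes. The red blood cell list of 5 names, of which 4 had a row, summed to 167 to 512 RPM over the pellets, against 11.9 to 20.9 RPM over the supernatants, with 2 of its 3 tested names higher in the pellets. Its most abundant name, miR-486-5p, stood at 138, 440 and 176 RPM in pellets 1, 2 and 3, and miR-451a, which defines this cell type, at 4.8, 37.0 and 10.4 RPM, against 1.31 to 2.98 RPM in the supernatants. miR-451a did not pass (limma adjusted p = 0.0510). The study's legend states that libraries of this kind did not capture miR-451, while its qRT-PCR found miR-451a abundant in fresh medium with FBS. The few RPM listed here are thus no measure of its level or of its split between fractions. miR-16-2-3p was highest in pellet 1 (24.3 RPM) and listed at 0 in all supernatants. The platelet and leukocyte list (3 of 5 names with a row, 1 of 2 tested names higher in the pellets) summed to 175 to 389 RPM over the pellets, against 25.4 to 52.5 RPM over the supernatants. Its miR-142-5p was highest in pellet 2, at 241 RPM, and its miR-21-5p in pellet 1, at 343 RPM. The myeloid marker miR-223-3p was at 0 in 5 libraries and at 0.196 RPM in pellet 2, less than 1 read. miR-126-3p of endothelium stood at 4.49 to 9.31 RPM in the pellets, against 1.67 to 4.54 RPM in the supernatants, a difference that did not pass. The hepatocyte list (3 of 5 names with a row, 1 of 3 tested higher in the pellets) summed to 49661 to 92899 RPM over the pellets, against 30991 to 40809 RPM over the supernatants. Nearly all of this sum was miR-122-5p, highest in pellet 1 (92838 RPM). The other hepatocyte names were highest in pellet 2. There miR-192-5p stood at 52.7, 67.7 and 52.1 RPM in pellets 1, 2 and 3, and miR-194-5p at 7.99, 21.3 and 2.31 RPM. The part of these cells in the members' values was not tested. Among all tested names 73 of 153 (47.7%) were higher in the pellets, and each list has too few tested names to set against that share.

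Shares among the 5p members of a library are free of the scaling to mapped reads. miR-99a-5p made up 45.1%, 34.8% and 18.8% in pellets 1, 2 and 3, against 36.7%, 49.2% and 42.2% in supernatants 1, 2 and 3. miR-100-5p made up 5.16%, 22.4% and 12.9% in the pellets, against 29.1%, 27.6% and 18.2% in the supernatants. Pellets 1 and 3 thus lay below every supernatant in the share of miR-100-5p, and pellet 2 did not. miR-99b-5p made up 23.7%, 8.40% and 26.4% in the pellets, against 11.2%, 6.21% and 12.3% in the supernatants. miR-125a-5p made up 7.51%, 1.35% and 11.7% in the pellets, against 0.320%, 0% and 3.14% in the supernatants. In these neighbours pellets 1 and 3 lay above every supernatant, and pellet 2 did not. The share of miR-10b-5p averaged 18.0% ± 8.04 over pellets, against 13.5% ± 3.67 over supernatants (SD, n = 3 each), with smaller shares of miR-10a-5p and miR-125b-5p. In all 7 the fractions overlapped, and none passed the two-sided exact permutation test (p = 0.2 to 1, adjusted over the 7 to 0.7 to 1), which at 3 against 3 cannot go below 0.10.

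**Figure D3:**
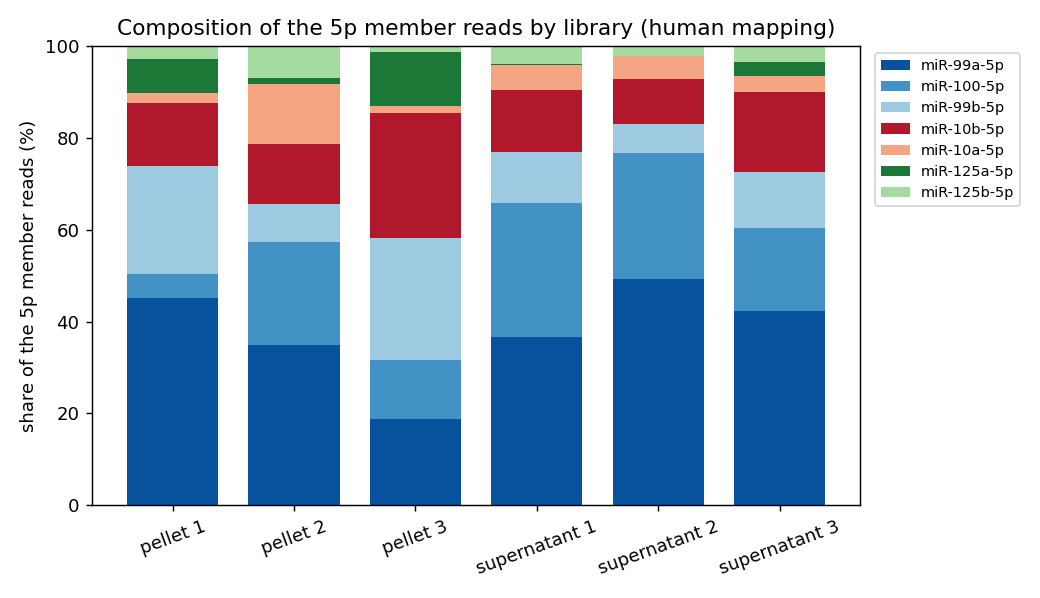
Share of each 5p member in the summed 5p reads of the members (percent, human mapping), with 3 pellets left of 3 supernatants. The supernatants resemble each other, with miR-99a-5p at 36.7% to 49.2%, whereas it ranges from 18.8% in pellet 3 to 45.1% in pellet 1.

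By the mean level in the pellets miR-99a-5p was first (202 ± 143 RPM), then miR-99b-5p (90.4 ± 53.6 RPM), miR-10b-5p (82.1 ± 26.2 RPM), miR-100-5p (79.6 ± 87.4 RPM), miR-10a-5p (40.3 ± 56.2 RPM), miR-125a-5p (27.3 ± 19.0 RPM) and miR-125b-5p (25.4 ± 27.1 RPM), and every pair of neighbours in that order overlapped. In the supernatants the order was miR-99a-5p (27.1 ± 5.90 RPM), miR-100-5p (15.6 ± 3.67 RPM), miR-10b-5p (8.47 ± 2.21 RPM), miR-99b-5p (6.16 ± 1.83 RPM), miR-10a-5p (2.87 ± 0.538 RPM), miR-125b-5p (1.99 ± 0.408 RPM) and miR-125a-5p (0.727 ± 1.10 RPM). There miR-10b-5p and miR-99b-5p overlapped between libraries, as did miR-10a-5p and miR-125b-5p, and miR-125b-5p and miR-125a-5p. Levels are RPM per name, not corrected for how well each miRNA enters a library.

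Members of a family can share reads. The estimated reads of miR-99b-5p were whole numbers in all 6 libraries (within 0.02 reads), whereas of the 12 values of miR-10a-5p and miR-10b-5p 2 were whole, and of the 12 of miR-99a-5p and miR-100-5p 3 were. Values between whole numbers can arise where a read is divided among names. Summed, miR-10a-5p and miR-10b-5p were whole in 3 of 6 libraries, as were miR-99a-5p and miR-100-5p, so the split within each pair is uncertain. Of the 12 values of miR-125a-5p and miR-125b-5p 5 were whole, and of their 6 sums only 1 was. In the fit with the 5p members of a family summed before testing, the 3 sums were higher in the pellets and the 2 tested 3p names did not pass, where 77 of all 149 names of that fit were higher.

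The size and, for 2 members, the direction of the changes depended on what the values were scaled to. Scaled to all miRNA reads, the median log2 fold change of all tested names was 1.47 instead of 2.05, and 3 of the 9 members were higher in the pellets, without miR-99a-5p (1.77, adjusted p = 0.0604). Scaled to the miRNA reads other than miR-122-5p and miR-1246, the median was 0.28, 0 of the 9 passed by limma, and over all tested names 1 was higher and 5 were lower (14 and 12 at an unadjusted p under 0.05), where per mapped read 73 were higher and 0 lower. On that scale miR-125a-5p was at 2.66 (adjusted p = 0.132), miR-99b-5p 1.52 (adjusted p = 0.132) and miR-10b-5p 1.05 (adjusted p = 0.290), while miR-100-5p turned to -0.34 and miR-125a-3p to -0.40 (adjusted p = 0.850 each). Median-of-ratios scaling gave nearly these values, with a median of 0.35. miRNAs other than miR-122-5p and miR-1246 summed to 12511 ± 5870 RPM over pellets, against 2577 ± 219 RPM over supernatants (SD, n = 3 each). Of these the members made up 3.64%, 6.59% and 3.04% in pellets 1, 2 and 3, against 2.24%, 2.92% and 2.41% in supernatants 1, 2 and 3.

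**Figure D4:**
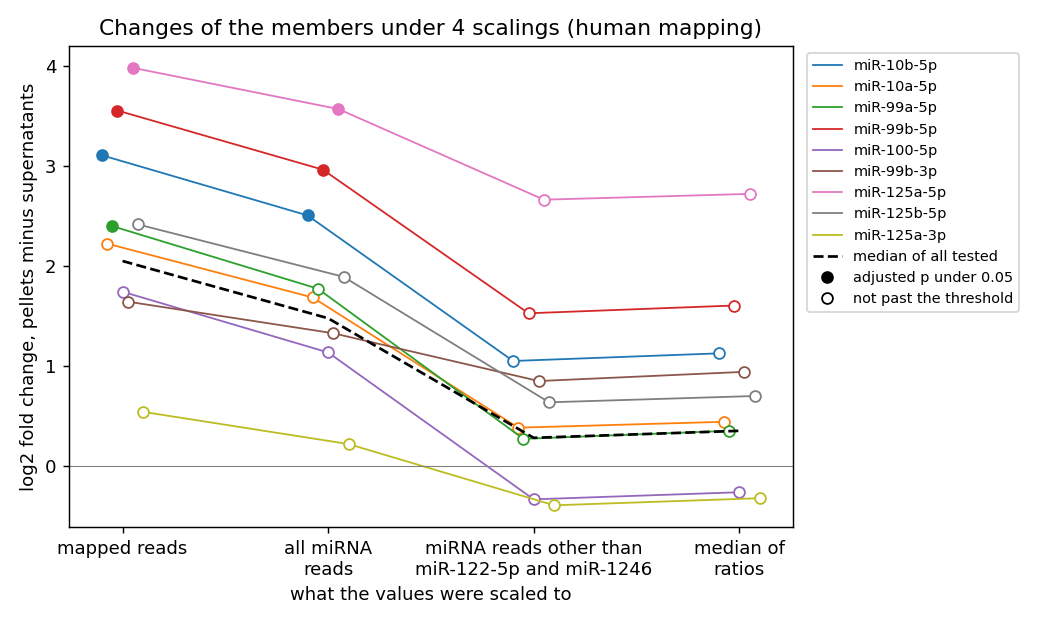
Log2 fold change of pellets over supernatants for the 9 tested members in the human mapping under 4 scalings, with filled symbols for an adjusted p under 0.05 and the median of all 153 tested names as a dashed line. The 4 members past the threshold per mapped read become 3 per miRNA read and 0 under the other scalings, and miR-100-5p and miR-125a-3p cross to below 0.

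Of 6 let-7 names made from the same primary transcripts, 3 had a row and were tested, and 2 were higher in the pellets. Over all tested names 73 of 153 (47.7%) were higher, and 3 names are too few to set against that share. let-7a-5p, a repressor of RAS whose reads can come from several loci, stood at 637, 258 and 204 RPM in pellets 1, 2 and 3, against 34.8, 48.3 and 56.8 RPM in supernatants 1, 2 and 3. It was thus far higher in every pellet (log2 fold change 2.79, limma adjusted p = 0.00913). let-7c-5p stood at 102, 72.3 and 47.5 RPM in the pellets, against 9.65, 12.8 and 14.7 RPM in the supernatants, without overlap (2.43 as log2 fold change, limma adjusted p = 0.0131). The miR-196 family, which also lies in the HOX clusters, was nearly absent, since of 4 names only miR-196a-5p had a row, at 1.80 RPM in pellet 1 and 0 in the other libraries.

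The mouse mapping of the same libraries gave the members nearly the same number of reads. Over the 38 values of at least 10 estimated reads, the mouse mapping held 90.9% to 103% of the reads of the human one, and the median value was equal in both. RPM were lower in the mouse table, as 4.47% to 12.8% more reads of a library mapped to that genome. mmu-miR-10b-5p, for example, averaged 76.2 ± 26.0 RPM over pellets, against 7.50 ± 2.04 RPM over supernatants (SD, n = 3 each). The same 4 of 9 tested members were higher in the pellets, with log2 fold changes of 3.15 for mmu-miR-10b-5p (adjusted p = 0.00960 from limma), 2.44 for mmu-miR-99a-5p (0.0374), 3.57 for mmu-miR-99b-5p (0.00960) and 3.89 for mmu-miR-125a-5p (0.0108). Over all 143 tested mouse names 55.9% were higher in the pellets. In 6 of the 9 members the pellets lay above the supernatants without overlap, which held for 72% of all tested mouse names. As the libraries are the same, the mouse values are no second measurement. Without supernatant 1 or 2, limma called 0 of the 9 and 0 of all 143 names there too (65 and 60 of these had an unadjusted p under 0.05).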

How the data were processed

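Small RNA libraries of 3 pellets and 3 supernatants were sequenced for 50 nt. The authors deposited 4 tables in RPM, scaled by them to mapped reads. Those of miRNAs for hg19 and mm10 were used here. exceRpt V2.2.8 made the hg19 table, and for mm10 the sources used here name no pipeline. RPM are not counts, and reads divided among names left many values between whole reads, so no count model was fitted.

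Members and lists were chosen with earlier results of these data known. Each table was tested across all its miRNAs with a two-sided moderated test (limma 3.58.1, R 4.3.3) of log2(RPM + 1), with a variance trend and no covariate, over names that reached 1 RPM in 3 or more libraries. The threshold was 0.05 after Benjamini-Hochberg adjustment. The pseudocount of 1 RPM makes the fold changes of low miRNAs too small. Exact permutation tests were run with Python 3.11.15 and scipy 1.17.1, and the limma step was tested on simulated data. Members that passed the filter and the 5 listed first are named with each library's value. miRNAs most like the summed members were taken by Pearson correlation. Alternatives were pseudocounts of 0.1 and 10 RPM, no filter, 3 scalings, no trend, summed families, a replicate block, and each library left out in turn. Mature sequences were not used here.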

Additional observations from a re-analysis of the deposited data

How the results depend on the processing

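No member passed the threshold as lower in the pellets under any of these alternatives, in either mapping. The count of members higher in the pellets, 4 in each mapping, was 2 without the filter on low values (2 in the mouse mapping), 0 when scaled to miRNA reads other than miR-122-5p and miR-1246 and 0 with median-of-ratios scaling in each mapping (the mouse table was scaled without miR-122-5p alone), and 2 in the mouse mapping when scaled to all miRNA reads. Leaving out each library gave 0 to 7 in each mapping. It was 3 with a pseudocount of 10 RPM in each mapping, and 3 of 5 with summed families, where the 3 sums stand for the 7 members of the 5p arm. Of 256 alternative values of single members, over both mappings of the same libraries, 191 kept their direction and side of the threshold, 47 lost it, 10 gained it and 8 reversed. Only the 4 members called in each mapping could lose it. Of 14 alternatives each, the human call was lost in 10 for miR-99a-5p, 5 for miR-125a-5p and 4 each for miR-10b-5p and miR-99b-5p. In the mouse mapping these were 10, 5, 5 and 4. The reversals were those of miR-100-5p (-0.34, mouse -0.29, scaled without miR-122-5p and miR-1246, and -0.27, mouse -0.32, by median of ratios) and miR-125a-3p (-0.40, mouse -0.30, and -0.33, mouse -0.26), with adjusted p of 0.802 to 0.850 (limma). Over all tested names the count of 73 higher in the human mapping became 38 with a pseudocount of 10 RPM, 11 without the filter, 37 per miRNA read, 1 under the other scalings and 0 to 97 without 1 library, and that of 80 in the mouse mapping became 34, 10, 9, 1 and 0 to 94. The cause was not tested. Among differences in shares of the 5p reads, pellets minus supernatants, leaving out a library moved miR-10a-5p (0.94 percentage points) over -2.83 to 2.96, miR-125b-5p (0.49) over -1.11 to 1.65 and miR-10b-5p (4.49) over -0.15 to 6.96. The labels give both fractions the numbers 1 to 3, but same-numbered libraries did not deviate together throughout (correlation across miRNAs of -0.19, 0.27 and 0.26 for numbers 1, 2 and 3), and not every library correlated best with its own. Whether same numbers mark a shared batch of FBS is thus not settled by labels or data, and the fit without the block was kept. With the replicate block 5 members were higher in each mapping, the added one being hsa-miR-125b-5p (adjusted p = 0.0476) or mmu-miR-99b-3p (adjusted p = 0.0498), and 78 of all human and 73 of all mouse names, and the smallest p of a share was 0.25, the least 3 pairs allow. Depth limits pellet 3 most, where a count of 0 allows up to 3.46 RPM.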

Other observations

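The 3 tested miRNAs whose level over the 6 libraries was most like the summed members, by Pearson correlation of log2(RPM + 1) in the human mapping, were miR-379-5p of the imprinted DLK1-DIO3 region (r = 0.99, Spearman's rho = 0.83), let-7i-5p (r = 0.99, rho = 0.94) and miR-152-3p (r = 0.99, rho = 0.94). let-7i-5p stood at 88.2, 98.0 and 26.6 RPM in pellets 1, 2 and 3, against 14.6, 15.4 and 15.5 RPM in supernatants 1, 2 and 3. Like the summed members, let-7i-5p was low in pellet 3 and even among the supernatants, as its choice by correlation favours. The libraries fall into 2 fractions and share their depth with every miRNA, so these correlations are a description without a test.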
